A study of Sus scrofa with 11 samples.

Results

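POSTN, FN1 and SPP1 encode periostin, fibronectin and osteopontin, 3 secreted proteins of the extracellular matrix. Each was taken as the row of the deposited expression table that carries its symbol, which gave 3 of the 16319 genes in the table (POSTN, ENSSSCG00000009361; FN1, ENSSSCG00000016174; SPP1, ENSSSCG00000009216). The samples were heart slices of Yorkshire pigs, a domestic breed, with the genotype given as WT and an age of 3 months in all groups. The uncultured group, day 0, had 3 libraries. Cultured slices, labelled Stim, were sampled on day 2 (2 libraries), day 6 (3) and day 10 (3). The kind of stimulation is not described in the labels. Nor do they state whether replicates came from separate animals, so p-values measure only the spread between these samples. Total RNA was made into sequencing libraries, and the authors' values are FPKM, fragments scaled to gene length and library depth. A slice holds all cell types of the heart, so more cells of a type and more RNA per cell cannot be told apart in these values.

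Matricellular proteins are secreted into the matrix, where they signal to cells through integrins and other receptors more than they bear load. Periostin is made by fibroblasts, is low in the healthy adult heart and rises after injury. It binds collagen and takes part in its crosslinking. Fibronectin is assembled by cells into fibrils that serve as a scaffold for collagen and as a ligand for integrins, so it is a structural matrix protein as well. Osteopontin is a phosphoprotein with an integrin binding site, made in the injured heart largely by macrophages, and it also binds CD44.

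Depth was similar across the 11 libraries, with 11701409 to 16775194 reads on genes. Other properties were not. Day 0 replicate 2 had 4536 genes at 0 and day 2 replicate 1 had 4017, against 1310 to 2331 in the other 9 libraries. The median FPKM of genes up to 1500 bases long, divided by that of genes of 5000 bases or more, was 5.87 in day 0 replicate 2, 3.91 in day 10 replicate 1 and 2.52 in day 2 replicate 1. It lay between 1.26 and 1.90 in the other libraries. This bears on the 3 genes, since the lengths implied by the FPKM values were 8144 bases for FN1, 5155 for POSTN and 1430 for SPP1. All 11 read numbers recovered for POSTN were even, as were those of 4 of the 8774 genes with more than 5 reads in every library, and smaller numbers by that common factor would imply a length that is not a whole number of bases. All 3 genes had their lowest value in day 0 replicate 2, as did 52.8% of the 12625 genes tested.

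POSTN was at a low to moderate level through day 6 and was high in every library of day 10. At day 0 it was at 17.5, 1.17 and 41.7 FPKM in replicates 1 to 3, which is 20.1 ± 20.4 (SD, n = 3). At day 2 it was at 16.2 and 32.9 FPKM, or 24.6 ± 11.8 (SD, n = 2). At day 6 it was at 16.1, 6.03 and 12.2 FPKM, or 11.5 ± 5.08 (SD, n = 3). The first 3 groups overlapped with one another except that day 6 lay wholly below day 2, as it did for 5.77% of all genes. At day 10 POSTN reached 209, 183 and 503 FPKM, or 298 ± 178 (SD, n = 3), on 15724, 11030 and 42156 reads. The lowest library of day 10 was thus above the highest of the other 8, which was true of 4.15% of all genes tested.

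FN1 had the highest mean and median FPKM of the 3 at day 10, with a wide spread, and it was the lowest of the 3 in replicate 1. Its FPKM at day 0 was 39.5, 1.94 and 31.8, or 24.4 ± 19.9 (SD, n = 3). At day 2 its replicates were far apart, at 8.03 and 50.6 FPKM, or 29.3 ± 30.1 (SD, n = 2). Day 6 was tight, at 27.2, 31.8 and 24.4 FPKM, or 27.8 ± 3.72 (SD, n = 3). At day 10 FN1 stood at 50.1, 323 and 939 FPKM, or 438 ± 455 (SD, n = 3). Day 10 replicate 1, one of the libraries with low values of long genes, was at the level of the higher day 2 library, and replicates 2 and 3 were above all libraries of other days. In day 10 replicate 3, FN1 took 0.765% of all reads and ranked 118 among the genes of the table.

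SPP1 varied widely within each day. It was at 26.1, 0.609 and 5.50 FPKM at day 0, or 10.7 ± 13.5 (SD, n = 3). The value of replicate 2 rests on 11 reads, with an exact 95% binomial interval of 0.304 to 1.09 FPKM that covers counting error only. At day 2 SPP1 was at 121 and 28.8 FPKM, or 75.1 ± 65.5 (SD, n = 2). At day 6 it was at 21.4, 35.0 and 7.52 FPKM, or 21.3 ± 13.7 (SD, n = 3). Both day 2 libraries lay above all of day 0, as those of 26.7% of all genes did, while day 6 overlapped with both. At day 10 SPP1 was at 217, 82.7 and 28.4 FPKM, or 109 ± 97.1 (SD, n = 3). Its order across the day 10 libraries was the reverse of that of FN1, highest in replicate 1 and lowest in replicate 3. The lowest of these values was just above the highest day 0 value and below both day 2 values.

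**Figure D1:**
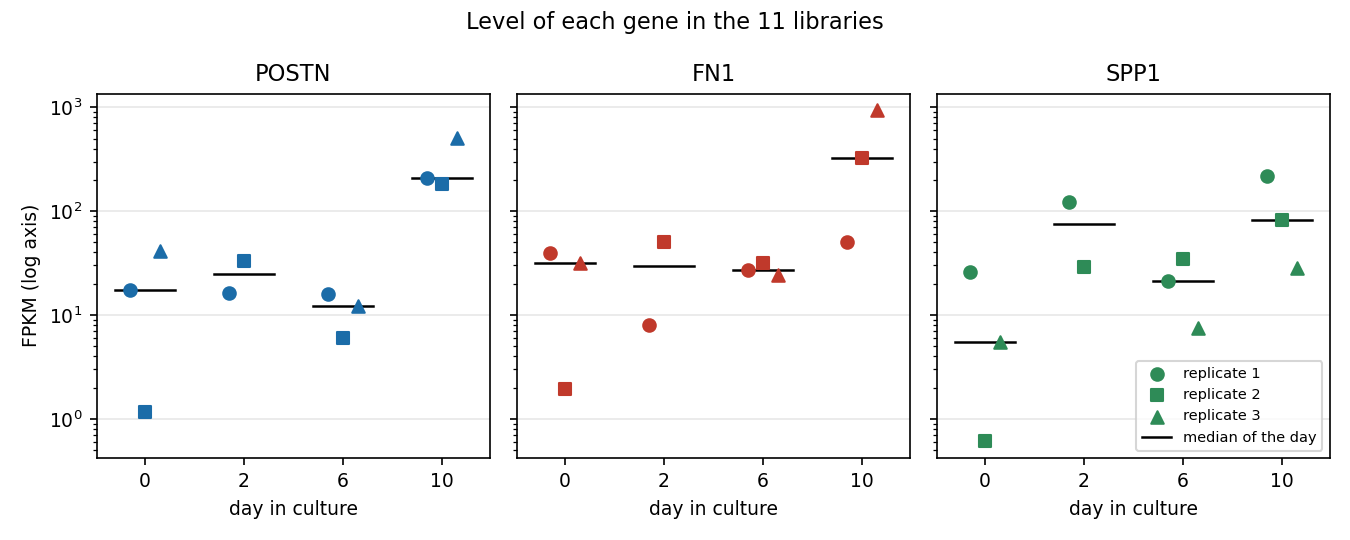
FPKM (log axis) of POSTN, FN1 and SPP1 in each of the 11 libraries by day; points are libraries and horizontal lines the medians of each day. POSTN at day 10 (183 to 503 FPKM) clears all other libraries, while the day 10 values of FN1 run from 50.1 to 939 and those of SPP1 from 28.4 to 217.

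Against day 0, the test across all genes called all 3 genes higher at day 10, where 11.9% of all genes were called higher. The test was limma's moderated test on log2(FPKM + 1), with Benjamini-Hochberg adjustment over the 12625 genes with a mean of at least 1 FPKM and a threshold of 0.05. On this scale, which understates the change of low genes, POSTN rose by 4.49 ± 0.88 (SE), a 22.5-fold change (95% interval of the log2 change 2.59 to 6.39, limma adjusted p = 0.00383). FN1 rose by 3.99 ± 1.10 (SE, interval 1.60 to 6.38, limma adjusted p = 0.0253). SPP1 rose by 3.63 ± 1.00 (SE, interval 1.46 to 5.80, limma adjusted p = 0.0250). Sorted by log2 change from the highest, the 3 genes ranked 73, 112 and 147 among all genes tested. The median log2 change of all tested genes in this comparison was 0.51. In all 3 cases the day 10 libraries lay above every day 0 library, as those of 25.1% of genes did.

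The 3 calls at day 10 were not equally firm. POSTN kept its call without any 1 library, with log2 changes from 3.26 to 5.41. The call of FN1 was lost without day 0 replicate 2 (log2 change 2.78, limma adjusted p = 0.0534), without day 10 replicate 2 (3.80, adjusted p = 0.0781) and without day 10 replicate 3 (3.03, adjusted p = 0.116). That of SPP1 was lost without day 0 replicate 2 (2.61, adjusted p = 0.0534), day 0 replicate 3 (3.62, adjusted p = 0.0532), day 10 replicate 1 (2.92, adjusted p = 0.106) or day 10 replicate 2 (3.61, adjusted p = 0.0692), and with voom on the recovered reads (4.09, adjusted p = 0.0555). Without both libraries that have few detected genes, all 3 were called, at log2 changes of 3.26 for POSTN (limma adjusted p = 0.000704), 2.78 for FN1 (0.0248) and 2.61 for SPP1 (0.0292).

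At day 2 and day 6, no member passed the test against day 0, where 5.76% and 9.55% of all genes were called higher. SPP1 at day 2 came closest, with a log2 change of 3.20 ± 1.12 (SE, interval 0.78 to 5.62, limma adjusted p = 0.0932), and was the 1 of the 3 below an unadjusted p of 0.05, as were 26.2% of all genes. Its value fell to 1.17 ± 1.09 without both libraries with few detected genes, and it was called (4.22, adjusted p = 0.0333) without day 0 replicate 1. POSTN at day 2 had a log2 change of 1.01 ± 0.98 and FN1 one of 0.46 ± 1.23, with intervals of -1.11 to 3.14 and -2.21 to 3.12. At day 6 the changes were -0.04 ± 0.88 for POSTN, 0.86 ± 1.10 for FN1 and 1.53 ± 1.00 for SPP1, and none was below an unadjusted p of 0.05, where 35.5% of all genes were. Voom on the recovered reads likewise called none of the 3 at day 2 or day 6. The intervals of POSTN and FN1 include both rises and falls, so a level equal to day 0 was not shown. All 3 comparisons share the day 0 libraries.

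**Figure D2:**
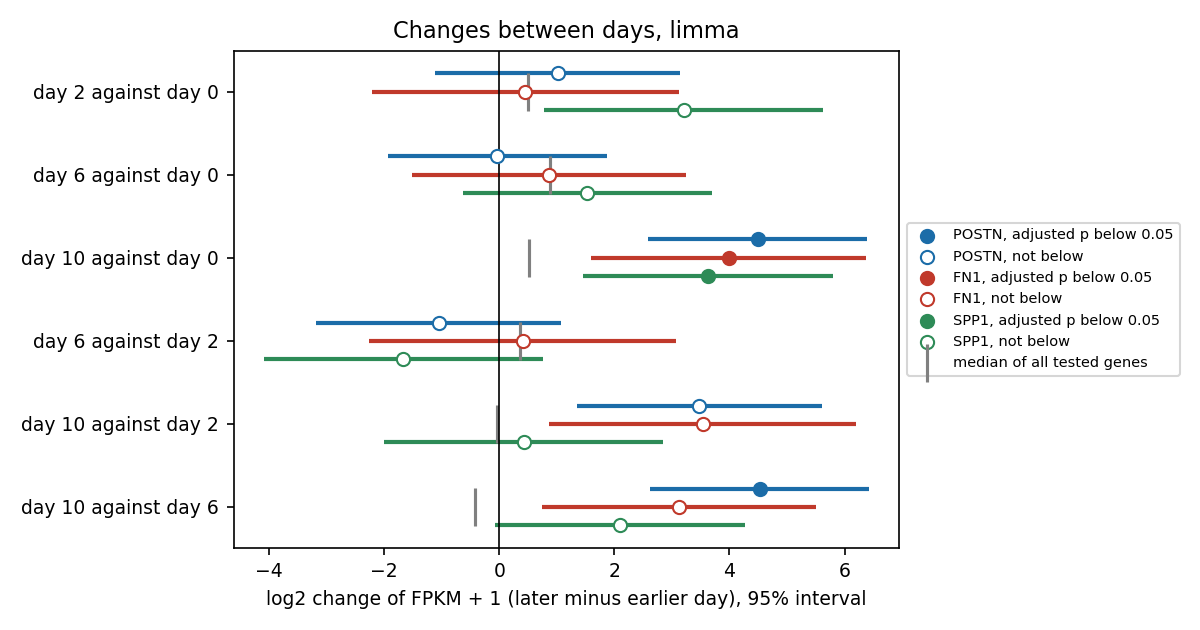
Log2 change of each gene on the log2(FPKM + 1) scale for the 6 comparisons between days, with 95% intervals from limma; filled points have an adjusted p below 0.05, and grey vertical marks show the median of all tested genes in that comparison. At day 10 against day 0 the intervals of all 3 genes lie above 0.51, the median of all genes.

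Between cultured days, POSTN was called higher at day 10 than at day 6, by 4.52 ± 0.88 (SE, interval 2.62 to 6.43, limma adjusted p = 0.0101), where 1.91% of all genes were called higher and the median of all genes was -0.43. It ranked 15 of 12625 by log2 change in that comparison, and the call was lost without day 6 replicate 2 (4.16, adjusted p = 0.0541). FN1 was higher by 3.12 ± 1.10 at day 10 than at day 6 without a call (adjusted p = 0.132), and it was called after median ratio scaling (3.52, adjusted p = 0.0429), after quantile normalization (3.32, 0.0460) and without both libraries with few detected genes (3.12, 0.0118). SPP1 differed by 2.10 ± 1.00 between these days (adjusted p = 0.263). Against day 2, at day 10 the differences were 3.47 ± 0.98 for POSTN (adjusted p = 0.186), 3.53 ± 1.23 for FN1 (0.364) and 0.43 ± 1.12 for SPP1 (1.00). None of the 3 was called there, where 0.333% of all genes were called higher, while POSTN and FN1 were below an unadjusted p of 0.05, as were 8.13% of all genes. From day 2 to day 6, limma called 0 genes of the whole table, with 511 genes (4.05%) at an unadjusted p under 0.05 and none of the 3 among them. Voom on the recovered reads also called 0 genes there.

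Over all 4 days in 1 test, POSTN changed (limma moderated F test, adjusted p = 0.00953), and the call was lost without day 10 replicate 3 (0.0551). FN1 (0.0740) and SPP1 (0.0744) missed the threshold, which 14.6% of all genes passed. FN1 passed it after median ratio scaling (0.0370) and without both libraries with few detected genes (0.0254).

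Because long genes were low in some libraries, the fit was repeated after the median of each of 20 gene length classes was set equal across libraries, an alternative chosen after seeing the data. POSTN (3.99, limma adjusted p = 0.000404), FN1 (3.61, 0.00344) and SPP1 (3.12, 0.0392) stayed above day 0 at day 10. On that scale the day 10 values of FN1 were 6.54, 8.39 and 9.46, all above its highest value elsewhere, 5.11. FN1 was then called against day 6 (3.999, adjusted p = 0.00493) and POSTN against day 2 (3.60, adjusted p = 0.0258). How much of the spread of FN1 at day 10 goes with the low values of long genes in replicate 1 was not tested further.

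**Figure D3:**
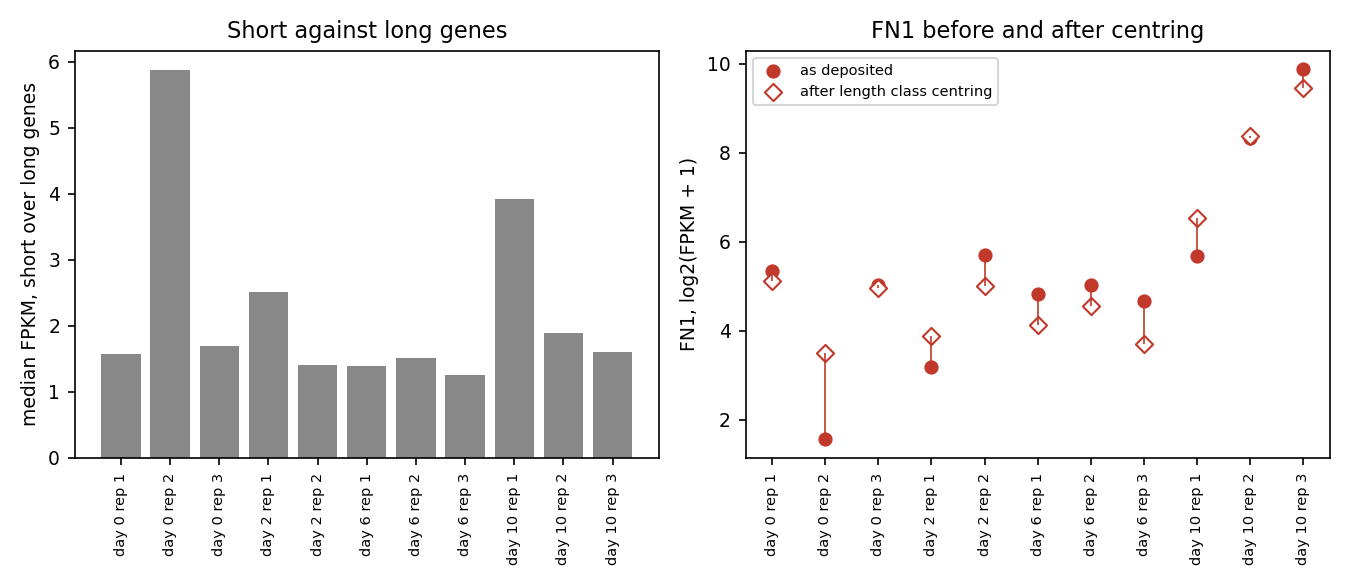
Left, median FPKM of short genes (up to 1500 bases) over that of long genes (5000 bases or more) in each library; right, FN1 on the log2(FPKM + 1) scale per library, as deposited (filled) and after length class centring (open). Day 0 replicate 2 is highest on the left at 5.87, and after centring the 3 day 10 values of FN1 (6.54, 8.39 and 9.46) lie above all others.

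FPKM are per gene length, but where long genes were low, the level of the short SPP1 cannot be set against those of FN1 and POSTN without that limit. By median and by mean FPKM the order was FN1, POSTN, SPP1 at day 0 and day 10, SPP1, FN1, POSTN at day 2, and FN1, SPP1, POSTN at day 6. Neighbours in these orders overlapped across libraries within each day. By mean log2 value without centring, POSTN came before FN1 at day 2 (4.60 and 4.43) and at day 10 (8.07 and 7.96). The same held after length class centring, at day 2 (4.55 and 4.44) and at day 10 (8.15 and 8.13). With and without centring, the orders of day 0 and day 6 were as above. Within libraries, SPP1 was 15.1 times FN1 in day 2 replicate 1 and 0.570 times FN1 in day 2 replicate 2. At day 10 the same ratio of FPKM was 4.33, 0.256 and 0.0302 in replicates 1 to 3. Its highest values, in day 2 replicate 1 and day 10 replicate 1, were 10.2 and 2.20 after length class centring. Long genes were low in these libraries. They were lowest against short genes in day 0 replicate 2, where the ratio was 0.315. In day 6 replicate 2, which was not among the libraries with low long genes, it was 1.10. A link between this ratio and the values of long genes was not tested. The ratio of POSTN to FN1 at day 10 was 4.17, 0.565 and 0.535, so replicate 1 stood apart there too. None of the 3 pairwise ratios differed between days beyond the spread of libraries, in an exact permutation test of F over 92400 arrangements (p = 0.581 for SPP1 to FN1, 0.306 for SPP1 to POSTN, 0.482 for POSTN to FN1, each unadjusted). After length class centring these p-values of the exact permutation test were 0.388, 0.167 and 0.478.

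Genes whose pattern over the 11 libraries was most like that of each member were found by Pearson's r of log2(FPKM + 1) among 8156 genes with a symbol, as a description. All values share library depth and the length effect above. For POSTN these were PLOD2 (0.9495), a lysyl hydroxylase of collagen, SRPX (0.948), PTN (0.935), a heparin binding growth factor, GPX8 (0.934), and NT5E (0.932), which makes adenosine at the cell surface. NT5E stood at 318, 222 and 439 FPKM at day 10 and at 22.6 or less in all other libraries. FN1 was most like GXYLT2 (0.984), the collagen chains COL5A1 (0.972), COL12A1 (0.972) and COL5A2 (0.970), and SFRP1 (0.971), a secreted Wnt antagonist. SFRP1 had 50.97, 186 and 710 FPKM at day 10, the same steep order across replicates as FN1. For SPP1 they were TMEM154 (0.949), PRPSAP2 (0.931), CEP15 (0.910), TMSB4X (0.899), which binds actin monomers, and CD86 (0.898), a costimulatory molecule of antigen presenting cells. CD86 was at 12.8, 8.98 and 5.82 FPKM at day 10, falling in the same order as SPP1. POSTN and FN1 had an r of 0.874 with each other, against 0.587 for POSTN and SPP1 and 0.424 for FN1 and SPP1.

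Among other matricellular proteins and close relatives, 17 genes were tested. At day 10, 4 were called higher than at day 0 and 3 lower, where 11.9% and 6.23% of all genes were. CCN4, a secreted Wnt target, rose from 0.296 ± 0.336 to 10.4 ± 3.34 FPKM (SD, n = 3 each, limma adjusted p = 0.000387). It was at 1.13 FPKM or less in all libraries of the other days, and met the mean of 1 FPKM only through day 10. TNC, tenascin C of wounds and remodelling tissue, rose from 0.839 ± 0.978 to 91.2 ± 89.2 FPKM (adjusted p = 0.00285). THBS1 (thrombospondin 1) and SPARC, which binds collagen, rose as well, SPARC from 304 ± 196 to 2079 ± 1176 FPKM. FBLN5, a protein of elastic fibres, fell from 111 ± 34.8 to 11.2 ± 8.65 FPKM (adjusted p = 0.00244), and TNXB and SPARCL1 also fell. THBS1, SPARC, TNXB and SPARCL1 are named to complete the counts, after their values were seen. Only TNC was called at day 2 (limma adjusted p = 0.0400) and at day 6 (0.0353), as higher, beside 5.76% and 9.55% of all genes. Against day 6, CCN4 and SPARC were higher at day 10, beside 1.91% of all genes.

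Of receptors that bind the 3 proteins, 7 were tested and CD44 and the integrin chain ITGB3 were higher at each cultured day, when 5.76%, 9.55% and 11.9% of all genes were. CD44, which binds osteopontin and hyaluronan, rose from 18.1 ± 10.3 FPKM at day 0 to 117 ± 12.7 at day 2, 185 ± 15.9 at day 6 and 138 ± 36.5 at day 10 (limma adjusted p = 0.00772, 0.00232 and 0.000851). ITGB3, the beta chain of the vitronectin receptor, rose from 2.89 ± 2.31 to 32.6 ± 19.5, 32.2 ± 9.82 and 37.7 ± 28.4 FPKM (adjusted p = 0.0283, 0.0178 and 0.00897). ITGB6, an epithelial integrin chain, was lower at day 10 (adjusted p = 0.0447), beside 6.23% of all genes. It met the mean of 1 FPKM only through day 0, where replicates 1 and 3 were high, so its call carries that limit. The groups overlapped, since ITGB6 was at 0.305 FPKM in day 0 replicate 2 and at 0.395 in day 10 replicate 2. The fibronectin receptor chain ITGA5 was at 273 ± 126 FPKM at day 0 and 524 ± 367 at day 10 without a call (adjusted p = 0.381), and is named because of its ligand.

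Partners in matrix assembly and crosslinking showed calls against day 0 at day 10, when 7 of the 16 tested were higher and 0 lower, beside 11.9% and 6.23% of all genes. These were BMP1, a protease that trims procollagens (13.6 ± 6.38 to 151 ± 94.9 FPKM, limma adjusted p = 0.00236), COL6A2 (114 ± 44.3 to 990 ± 793 FPKM, 0.0107), COL6A1 (0.0199), LOXL1, COL5A2, COL5A1 and COL1A2. The median log2 change of the 16 was 2.33, beside 0.51 for all genes. At day 2 and day 6, limma called 0 of the 16, beside 5.76% and 9.55% of all genes called higher. Against day 6, COL1A2, COL6A2 and COL3A1 were higher at day 10, beside 1.91% of all genes.

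Proteases known to cleave these proteins included 7 tested genes, of which 3 were higher at day 2, 4 at day 6 and 5 at day 10, beside 5.76%, 9.55% and 11.9% of all genes. MMP9, a gelatinase, was at 0.474 ± 0.655 FPKM at day 0, 326 ± 114 at day 2, 99.3 ± 65.2 at day 6 and 311 ± 253 at day 10 (adjusted p = 0.000587, 0.00196 and 4.09e-05). PLAU, the urokinase that activates plasminogen, rose from 5.09 ± 3.36 to 136 ± 73.1, 91.8 ± 19.99 and 75.2 ± 26.7 FPKM, and MMP14, a membrane bound collagenase, was called at all 3 days. CTSB, a cathepsin, was higher at day 6 and day 10, and MMP2 at day 10 alone among the 3 days. In the list of TGF-beta signalling and its usual targets, 3 of 13 tested genes were higher at each day, beside the same shares of all genes. Among them, TGFB1, a growth factor that drives matrix production, rose from 28.2 ± 10.998 FPKM to 147 ± 85.5 at day 2 and 151 ± 57.6 at day 6 (limma adjusted p = 0.0342 and 0.0202). TGFB3, its relative, was called at day 2 and day 10, SMAD3 at day 6 and LTBP2 at day 10.

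**Figure D4:**
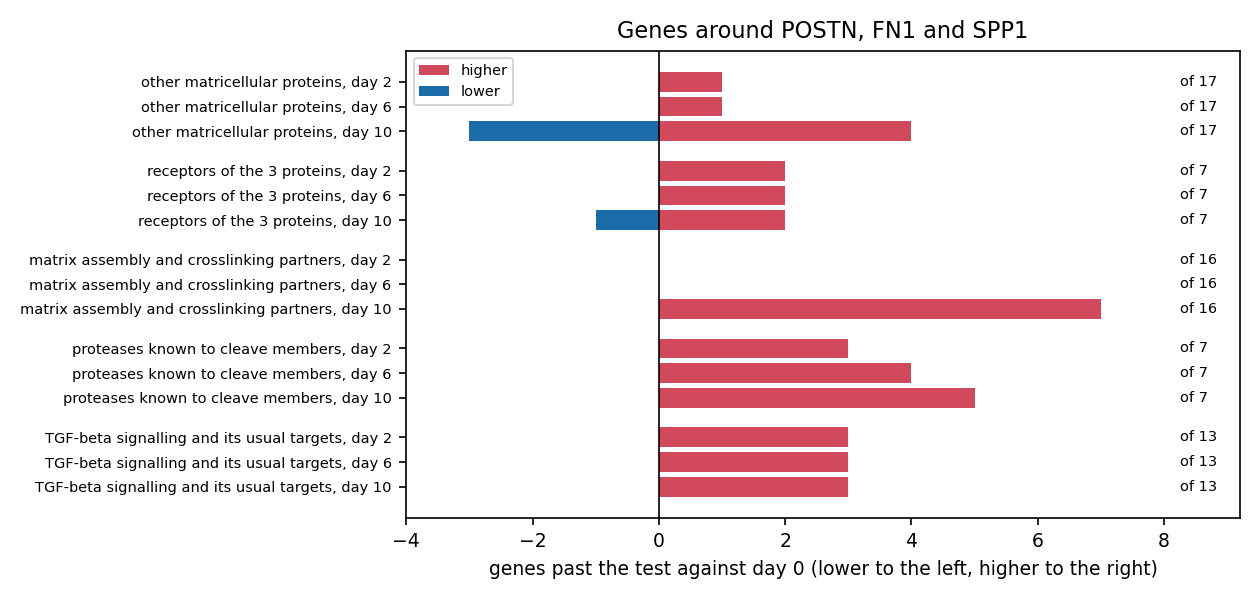
Number of genes called higher (right) or lower (left) than day 0 by limma in 5 lists around POSTN, FN1 and SPP1 at days 2, 6 and 10, with the number tested at the right edge. Matrix assembly and crosslinking partners show no call until day 10, when 7 of 16 were higher. Matricellular proteins, receptors, proteases and TGF-beta genes show calls from day 2. Of all genes, 5.76%, 9.55% and 11.9% were called higher at days 2, 6 and 10, and 6.23% lower at day 10.

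The list counts were repeated, a step added after seeing the data, without both libraries with few detected genes, where 14.4% of all genes were called higher and 12.5% lower at day 10. At day 10 against day 0, the matricellular list then had 4 higher and 5 lower, receptors 3 and 1 of 8, assembly partners 5 and 0, proteases 5 and 0, and the TGF-beta list 4 and 0. With length class centring, where the shares of all genes were 8.2% and 11.8%, the counts of higher genes were 5, 3, 8, 4 and 4. At day 2, the matricellular list had 2 higher and 2 lower without both libraries and 1 and 2 with length class centring, and the higher count of the TGF-beta list went from 3 to 1 in both. The shares of all genes at day 2 were 5.8% higher and 5.04% lower without both libraries, and 3.7% and 7.75% with length class centring. At day 6, 2 of the 16 assembly partners were called lower without both libraries and 3 were with length class centring, where the higher counts of proteases and TGF-beta genes went from 4 to 2 and from 3 to 1. With length class centring the share of all genes called higher at day 6 also went down, from 9.55% to 2.57%, and 6.91% were lower. Without both libraries these shares were 10.7% and 5.03%. The matricellular list at day 6 had 1 higher and 2 lower without both libraries, and 0 higher and 1 lower with length class centring, so TNC was not called higher there.

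Marker lists of cell types differed in how they moved. Cardiomyocyte markers, 7 with a row, summed to 56086 to 80981 FPKM at day 0, 1803 to 9712 at day 2, 9124 to 20636 at day 6 and 14.4 to 61.1 at day 10. All 7 were called lower at day 10 than at day 0, beside 6.23% of all genes. MYH6 fell from 17069 ± 9197 to 1.74 ± 0.686 FPKM, while MYL3 was still at 42.6, 22.1 and 6.01 FPKM in the day 10 libraries. The 7 fibroblast markers summed to 708 to 2344 FPKM at day 0, 803 to 2747 at day 2, 638 to 1510 at day 6 and 5241 to 12513 at day 10, with none at 0 in any library. Of these, VIM and COL1A2 were higher at day 10 than at day 0, and LUM, COL1A2, COL3A1 and VIM were higher than at day 6. The shares of all genes called higher in these comparisons were 11.9% and 1.91%. Without both libraries with few detected genes, 1 of the 7 was higher at day 10 than at day 0, beside 14.4% of all genes. With length class centring 3 were, beside 8.2%. At day 6, 3 of the 7 were lower than at day 0 under each of these alternatives, beside 5.03% and 6.91% of all genes. COL1A2 and COL3A1 stand in the list of assembly partners as well. The 8 markers of smooth muscle and myofibroblasts summed to 2329 to 3202 FPKM at day 10 and 2125 to 7400 at day 0, with TAGLN higher and DES lower at day 10. DES, desmin, is also made by cardiomyocytes. Without it, a sum chosen after its values were seen, the other 7 came to 231 to 493 FPKM at day 0, 201 to 434 at day 2, 76.7 to 236 at day 6 and 2301 to 3168 at day 10. Most of that day 10 sum was TAGLN, at 1946, 2395 and 1971 FPKM. The 8 markers did not rise as a set, since their median log2 change at day 10 was -0.15, beside 0.51 for all genes. Of the 8, 1 was called higher and 1 lower, beside 11.9% and 6.23% of all genes.

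Set against the summed fibroblast markers of the same library, POSTN was 3.99%, 2.95% and 4.02% at day 10 and at most 2.02% in the other libraries. FN1 was 0.956%, 5.22% and 7.51% at day 10 and 0.273% to 3.83% elsewhere, so its groups overlapped. Single markers weighed heavily in the fibroblast sum. VIM was 3498 of 5241 FPKM in day 10 replicate 1, and COL3A1 was 5604 of 12513 FPKM in day 10 replicate 3. The 10 macrophage markers, none of them at 0 in any library, summed to 276 to 922 FPKM at day 0, 162 to 893 at day 2, 200 to 423 at day 6 and 38.3 to 831 at day 10. C1QA was 613 of 922 FPKM in day 0 replicate 2 and 9.02 of 38.3 FPKM in day 10 replicate 3. At day 10, 0 of the 10 were called higher and CSF1R, the receptor for the macrophage growth factor, was lower, at 1.97 ± 0.951 against 21.4 ± 3.92 FPKM. Of all genes, 11.9% were called higher and 6.23% lower in this comparison. Without both libraries with few detected genes, 3 of the 10 were lower, beside 12.5% of all genes. With length class centring 2 were, beside 11.8%. SPP1 was 26.1%, 36.4% and 74.3% of the summed macrophage markers at day 10 and 0.0661% to 17.8% elsewhere. These shares were chosen after values were seen and carry no test. The part of each cell type in the values of the 3 genes was not tested.

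**Figure D5:**
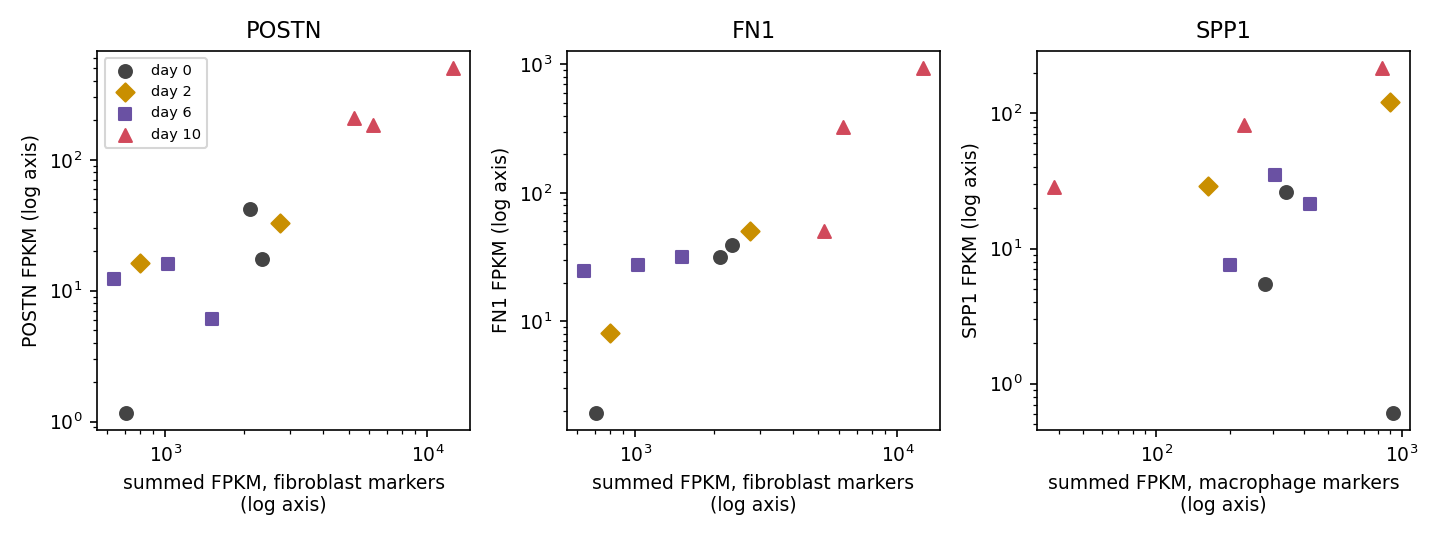
FPKM of POSTN and FN1 against the summed FPKM of 7 fibroblast markers, and of SPP1 against that of 10 macrophage markers, per library (log axes). The day 10 libraries lie to the upper right for POSTN, while for SPP1 they spread over macrophage sums from 38.3 to 831.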

How the data were processed

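RNA of 11 pig heart slice libraries had been prepared with a TruSeq kit, per the labels' protocols. Bowtie 0.12.2 and mm8, a mouse build, appear in the submitters' processing notes without a role, although gene identifiers are pig Ensembl IDs. Counting tool, annotation and use of strand are not stated in the labels, so no coordinates are given. The deposited table holds FPKM per gene and library, as computed by the authors. Of 16319 genes, 9686 had a symbol and 246 were at 0 everywhere. FPKM were whole multiples of a step per gene, from which reads were recovered for 16073 genes (all genes above 0, tolerance 0.01). Intervals from reads cover counting error only.

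The 12625 genes averaging 1 FPKM or more were tested on log2(FPKM + 1) with limma 3.58.1 in R 4.3.3 (lmFit, eBayes with trend, 4 groups as terms, 7 residual and 5.89 prior degrees of freedom), two-sided, with Benjamini-Hochberg adjustment within each of 6 comparisons. The limma steps and the recovery of reads were tested on simulated data. Named genes were the 3 members, for each the 5 with the highest r, and up to 3 per list and comparison by smallest p among those called; the report says where it goes beyond this. One list gene is counted but not reported here by name. The members and lists were chosen with earlier results of these data known. Alternatives covered pseudocounts, filters, scaling, variance models, weights, replicate number, single libraries and voom on recovered reads.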

Additional observations from a re-analysis of the deposited data

How the results depend on the processing

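POSTN kept its call at day 10 against day 0 under every alternative run. Leaving out 1 library at a time gave log2 changes of -0.22 to 1.93 for POSTN, -0.80 to 1.71 for FN1 and 2.18 to 4.22 for SPP1 at day 2 against day 0. At day 6 against day 0 they were -1.27 to 0.88 for POSTN and -0.35 to 1.55 for FN1. At day 10 against day 0 they were 2.78 to 5.13 for FN1 and 2.61 to 4.65 for SPP1. From day 2 to day 6 FN1 ran from -0.85 to 1.67. At day 10 against day 2 POSTN ran from 2.99 to 3.96 and SPP1 from -0.59 to 1.45, and against day 6 POSTN ran from 4.07 to 4.80 and FN1 from 2.17 to 4.27. The adjusted p over the 4 days ran from 0.000282 to 0.0551 for POSTN, 0.0309 to 0.257 for FN1 and 0.0278 to 0.161 for SPP1. The other results kept their direction and their side of the threshold without any 1 library. Without day 0 replicate 2, POSTN at day 10 against day 2 (adjusted p = 0.00856) and FN1 at day 10 against day 6 (0.0305) gained calls. Where a day 2 library was left out, the lone one was assumed to vary like the other groups.

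Uncalled changes of FN1 turned negative at day 2 against day 0 with median ratio scaling (-0.21), quantile normalization (-0.16), array weights (-0.77) and length class centring (-0.081), and at day 6 with the same settings (-0.13, -0.17, -0.39 and -0.39) and without both libraries with few genes (-0.35). Between day 6 and day 2, FN1 turned negative with quantile normalization (-0.0066), length class centring (-0.31) and without both libraries (-0.85). POSTN at day 6 turned positive with a pseudocount of 0.1 (0.13) and with voom (0.11). SPP1 lost its call at day 10 with voom (4.09). Calls were gained by POSTN at day 10 against day 2 with only the groups compared (3.47) and length class centring (3.60), and by FN1 at day 10 against day 6 with median ratio scaling (3.52), quantile normalization (3.32), only the groups compared (3.12), array weights (3.36), length class centring (3.999) and without both libraries (3.12). SPP1 gained one there with only the groups compared (2.10) and array weights (2.08). The adjusted p of FN1 over the 4 days passed with a pseudocount of 5 (0.0471), median ratio scaling (0.0370), quantile normalization (0.0489), array weights (0.000169), length class centring (0.00506) and without both libraries (0.0254), and that of SPP1 with array weights (0.0143). Apart from the leave-one-out settings, which hold fewer samples, the cause of these shifts was not tested. The test over the 4 days was not run on single pairs of groups.

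With the replicate number as a block, FN1 between day 6 and day 2 was at -0.058, SPP1 passed over the 4 days (adjusted p = 0.0396), and at day 10 against day 0 the 3 genes remained called, while genes called there went from 2295 to 2107 and those called at day 10 against day 2 from 84 to 53. The numbers are not known to pair samples: 9 of 15 pairs with the same number had residual correlations above 0.1 (range -0.552 to 0.469), and 5 of 11 libraries correlated best with one of their own number. Voom on recovered reads called 790, 782 and 1804 genes at days 2, 6 and 10 against day 0, where FPKM gave 1124, 1428 and 2295, and 13 against 84 at day 10 against day 2. Groups of 2 or 3 libraries limit all of these tests.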

Other observations

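Of 7 endothelial markers tested, EGFL7 and ERG, an endothelial transcription factor, were higher than at day 0 at day 2 (limma adjusted p = 0.0365 and 0.0479), and PECAM1, a junction protein, and ERG at day 6 (0.0369 and 0.0402), when 5.76% and 9.55% of all genes were. With length class centring, 1 of the 7 was higher at day 2, 0 at day 6 and 1 at day 10, beside 3.7%, 2.57% and 8.2% of all genes. PECAM1 rose from 209 ± 195 to 1224 ± 537 FPKM (SD, n = 3 each). At day 10, limma called 0 of the 7, beside 11.9% of all genes called higher and 6.23% lower. The summed FPKM of the 7 was then 368 to 1277 against 188 to 703 at day 0. Of 4 lymphocyte markers tested, CD2, CD4 and CD3D were lower at day 10, beside 6.23% of all genes, and CD3D was listed at 0 in all 3 day 10 libraries, against 2.55 ± 0.907 FPKM at day 0. CD2, CD4 and CD3D met the mean of 1 FPKM only through day 0, where they were high, so their calls carry that limit. ACTA2, the smooth muscle actin that marks myofibroblasts, was at 484 ± 412 FPKM at day 10 and 7.49 ± 8.75 at day 6 (limma adjusted p = 0.00697). In that comparison 1.91% of all genes were called higher. At day 0 ACTA2 was at 99.7, 40.1 and 36.7 FPKM, and it was not called at day 10 against day 0.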
